A study of Rattus norvegicus with 6 samples.

Results

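Of the 20653 genes in the deposited tables, 10 genes of the fibroblast growth factor (FGF) system were followed, 7 ligand genes (Fgf1, Fgf2, Fgf5, Fgf7, Fgf10, Fgf18 and Fgf21) and 3 receptor genes (Fgfr1, Fgfr2 and Fgfr3). They were chosen by gene symbol, and all 10 had a row in both tables. RNA sequencing was done on mesenchymal stem cells grown from rat nasal mucosa, in 3 libraries of cells named EMSC and 3 of cells named NPS-EMSC, which the series title describes as overexpressing neuropeptide S. Both groups are labelled as primary cells of SD genotype, and no further allele or agent is given for either. The labels do not say how neuropeptide S was delivered, whether EMSC carried a control vector, or whether the libraries of a group came from separate animals or cultures, so p-values measure only the spread between these libraries. Effects of gene delivery or selection cannot be told apart from those of the peptide.

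FGFs are secreted proteins that bind receptor tyrosine kinases together with heparan sulfate, and the activated receptors signal through the adaptor FRS2 to the RAS-ERK and PI3K pathways. In mesenchyme, Fgf7 and Fgf10 are the classical signals to a neighbouring epithelium, where they act on the b splice form of Fgfr2, while mesenchymal cells themselves mostly carry the c splice forms of the receptors. Fgf21 is an endocrine member that needs the co-receptor β-Klotho. The deposited values are per gene and do not separate splice forms.

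The libraries held 39082245 to 40261205 counted reads. Nps, which encodes the precursor of neuropeptide S, had 256496 reads over the NPS-EMSC group and 10 over the EMSC group, so the overexpressed gene separated the groups as their labels do. All 6 mesenchymal stem cell markers were detected and higher in NPS-EMSC, where 29.7% of all genes tested were higher. Their log2 fold changes ran from 0.32 (Vim) to 2.16 (Nt5e). Markers of several other cell types also moved. The summed level of 8 leukocyte markers was 56.3 to 70.4 CPM (reads scaled to library size) in EMSC and 9.09 to 11.5 CPM in NPS-EMSC, with 6 of 7 tested markers lower, 1 higher and Ptprc, the pan-leukocyte gene, at 94 reads against 1. Most of the EMSC sum was Lyz2, with group means of 52.5 and 3.84 CPM. The marker that was higher was Cd74 (137 and 232 reads), and its groups overlapped. Ptprc, Csf1r, Itgam and Tyrobp passed the low-count filter only through the EMSC group, so they had to differ to be tested. The summed level of 5 glial markers was 28.9 to 30.7 CPM against 6.16 to 7.08 CPM, with both tested markers lower. The 6 epithelial markers summed to 4.18 to 4.93 CPM in EMSC and 10.1 to 13.2 CPM in NPS-EMSC, carried by Krt8 (420 and 667 reads) and Krt18 (84 and 694 reads), while Krt5 had 28 and 0 reads, Cdh1 6 and 4, Krt14 1 and 0, and Epcam 4 in each group. The 6 cartilage and bone markers summed to 13.6 to 16.1 CPM in EMSC and 26.2 to 32.0 CPM in NPS-EMSC, with 2 of 4 tested markers higher (Acan, with 251 and 2165 reads, and Ibsp) and 2 lower (Sox9 and Col2a1). The 6 skeletal muscle markers summed to 13.5 to 15.9 and 14.1 to 17.7 CPM, with Myh3 and Myog higher (29 and 648 reads, 25 and 134 reads), Tnnt3 lower and Des without a call. Of the 6 neuronal markers only Snap25 could be tested, and it was lower (108 and 23 reads), though it passed the low-count filter only through the EMSC group. The others had few reads and went both ways. Elavl4 had 0 and 19 reads, Elavl3 0 and 15, Syt1 10 and 17, Rbfox3 6 and 0, and Omp 4 and 3. The 3 tested endothelial markers, Pecam1, Tek and Vwf, had adjusted p values of 0.631 to 0.789. The part of these shifts in the FGF results was not tested, and in bulk RNA fewer cells of a type and less RNA per cell cannot be told apart.

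The receptor genes were lower in NPS-EMSC and the ligand genes moved in both directions. Of the 9 members with enough reads to be tested, 3 were higher (Fgf1, Fgf2 and Fgf21), 4 were lower (Fgf7, Fgfr1, Fgfr2 and Fgfr3) and 2 did not pass (Fgf10 and Fgf18). Fgf5 had too few reads. A gene passed at an adjusted p under 0.05 in edgeR's quasi-likelihood test, and 59.3% of all genes tested did so, 29.7% higher and 29.5% lower, so the 7 members called (77.8% of those tested) stand in a background where most genes passed, and their number is not a result about this family. Of the 9 tested members, 3 were called and changed at least 2-fold (Fgfr2, Fgfr3 and Fgf21), against 14.8% of all genes tested. In 8 of the 9 tested members the CPM values of the groups did not overlap, as in 64.7% of all genes tested. Fgf21 is in each of these counts, though it passed the low-count filter only through the NPS-EMSC group and so had to differ to be tested. The median log2 fold change was -0.21 for the tested members and -0.0048 for all genes tested, and the median size of the change regardless of direction was 0.46 against 0.34.

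**Figure D1:**
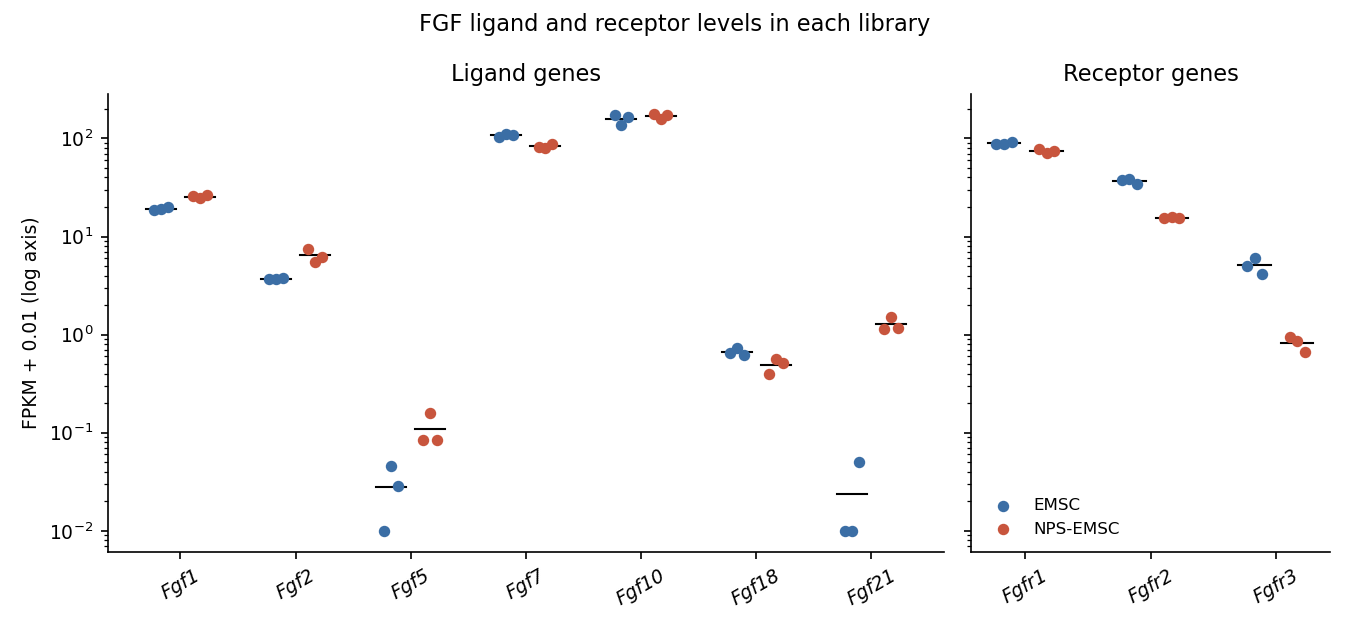
Level of each FGF ligand and receptor gene in each library, as FPKM (a level scaled to gene length and library size) plus 0.01 on a log axis; points are libraries and bars are means of 3. The values of Fgf10 overlap between the groups, and those of the other 9 genes do not. In CPM, the groups did not overlap in 64.7% of all genes tested. Fgf5 had too few reads to be tested, and Fgf21 had to differ to be tested.

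Fgfr3 had the deepest fall among the receptors. Its level, scaled by the authors to gene length and library size (FPKM), was 5.02, 6.02 and 4.17 FPKM in the EMSC libraries and 0.939, 0.859 and 0.659 FPKM in the NPS-EMSC libraries. Every NPS-EMSC library lay below every EMSC library, and the gene was 5.94-fold lower (log2 fold change -2.57, SE 0.15, adjusted p = 1.87e-12). Fgfr2, the receptor gene of Fgf7 and Fgf10, stood at 37.4, 38.2 and 34.7 FPKM in EMSC and at 15.3, 16.0 and 15.4 FPKM in NPS-EMSC. The NPS-EMSC values were tightly grouped, and the gene was 2.29-fold lower (log2 fold change -1.20, SE 0.05, adjusted p = 9.63e-17). Fgfr1, the main FGF receptor gene of mesenchymal cells, fell least, from 86.9, 88.0 and 92.2 FPKM in EMSC to 77.5, 71.7 and 74.8 FPKM in NPS-EMSC. The groups did not overlap, but the change was 1.16-fold (log2 fold change -0.21, SE 0.05, adjusted p = 3.92e-04). The 95% intervals of the log2 fold changes of the receptors did not overlap one another, at -0.30 to -0.11 for Fgfr1, -1.30 to -1.10 for Fgfr2 and -2.88 to -2.26 for Fgfr3.

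The upstream regions of the receptor genes that fell most are shown because both lie in dense GC. RefSeq promoters of rat assembly GRCr8 were matched by symbol for 9 of the 10 members, Fgfr1 being the one without an entry, and the 250 bases before the annotated start are printed 5′ to 3′ in gene orientation. Capitals mark the Sp1 GC box GGGCGG or its reverse complement.
Fgfr2, chr1:194280915-194281164 (GRCr8, minus strand): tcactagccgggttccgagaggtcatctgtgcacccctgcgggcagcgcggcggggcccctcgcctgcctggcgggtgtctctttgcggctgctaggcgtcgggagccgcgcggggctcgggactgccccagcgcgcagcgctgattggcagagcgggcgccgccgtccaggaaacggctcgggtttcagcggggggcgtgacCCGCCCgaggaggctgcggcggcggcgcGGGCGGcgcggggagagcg
Fgfr3, chr14:81227210-81227459 (GRCr8, minus strand): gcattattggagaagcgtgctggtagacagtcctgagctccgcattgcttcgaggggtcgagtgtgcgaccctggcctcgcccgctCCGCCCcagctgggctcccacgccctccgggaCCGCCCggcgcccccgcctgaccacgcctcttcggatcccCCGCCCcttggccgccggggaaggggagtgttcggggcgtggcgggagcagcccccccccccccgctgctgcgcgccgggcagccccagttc
The GC content of these windows was 76.8% for Fgfr2 and 74.4% for Fgfr3, against a median of 51.2% over 33469 promoters of the same length. Fgfr2 held 2 GC boxes and Fgfr3 held 3, and 30.5% of all promoters held at least 1 on either strand and 7.41% held 3 or more. GC boxes were not particular to the genes that fell. Fgf21, which rose, also held 2, and Fgf5 and Fgf18 held 1 each. Neither window held a TATA box (TATAAA), which 12.9% of all promoters did. A match in these letters is a description of the sequence and not a binding site. The highest GC content among the 9 windows was that of Fgf18, at 82.0%, and Fgf18 did not pass the test. Fgf10 (67.2%) and Fgf5 (66.8%) also lay above the median.

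The receptor pool was smaller, and the share of Fgfr1 in it larger, in every NPS-EMSC library. The summed level of Fgfr1, Fgfr2, Fgfr3 and Fgfr4 was 131 ± 1.49 FPKM in EMSC and 91.1 ± 2.57 FPKM in NPS-EMSC (SD, n = 3 each). Fgfr1 made up 67.2%, 66.5% and 70.3% of it in the EMSC libraries and 82.7%, 81.0% and 82.3% in the NPS-EMSC libraries. The share of Fgfr2 was 28.1% ± 1.41 in EMSC and 17.1% ± 0.851 in NPS-EMSC, and that of Fgfr3 was 3.87% ± 0.684 and 0.899% ± 0.152 (SD, n = 3). Fgfr1 exceeded Fgfr2 by a ratio of 2.43 ± 0.199 in EMSC and 4.81 ± 0.286 in NPS-EMSC (SD, n = 3). None of these values overlapped between the groups, and each gave p = 0.1 in a two-sided exact permutation test, the smallest p that 3 libraries against 3 allow (0.124 adjusted over the 21 shares, sums and ratios computed).

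**Figure D2:**
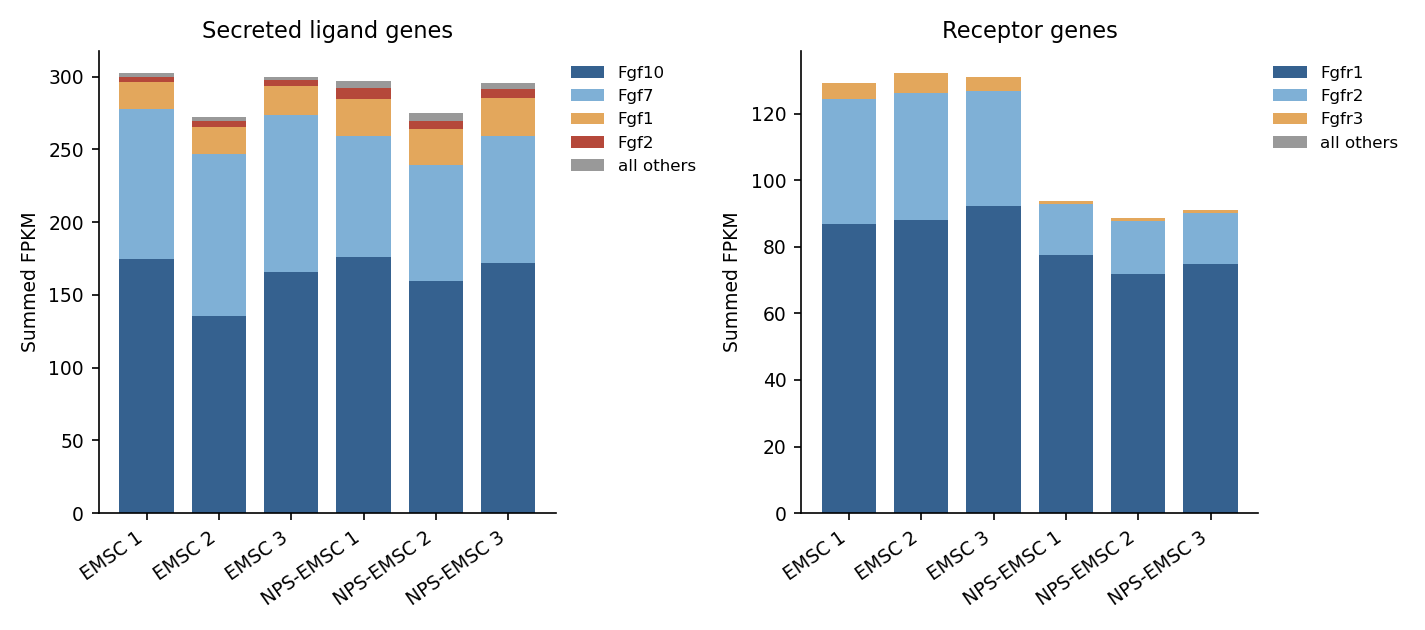
Summed FPKM of the secreted FGF ligand genes (left) and of the receptor genes Fgfr1 to Fgfr4 (right) in each of the 6 libraries, stacked by gene. The receptor columns are lower in NPS-EMSC, at 88.6 to 93.7 against 129 to 132 FPKM, while the ligand columns overlap between the groups.

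Fgf10 and Fgf7, the ligands that act on epithelium, had the highest FPKM of all 10 members in both groups. Fgf7, keratinocyte growth factor, was at 103, 111 and 108 FPKM in EMSC and at 82.7, 79.7 and 87.2 FPKM in NPS-EMSC. All NPS-EMSC libraries were below all EMSC libraries, and the gene fell by a modest amount (log2 fold change -0.32, SE 0.05, adjusted p = 2.31e-06). Fgf10 was at 175, 136 and 165 FPKM in EMSC and at 176, 159 and 172 FPKM in NPS-EMSC. EMSC replicate 2 lay below every NPS-EMSC library, while EMSC replicates 1 and 3 lay within the NPS-EMSC range, so the groups overlapped. Its log2 fold change was 0.14 (SE 0.07, 95% interval -0.02 to 0.30, adjusted p = 0.119), which does not show that the level was the same. Without EMSC replicate 1 the value was 0.20 and passed (adjusted p = 0.0229), and without EMSC replicate 2 it was 0.04 (adjusted p = 0.541). This order, also against the receptors, rests on the gene lengths behind the deposited FPKM, 648 bases for Fgf10 and 3822 for Fgf7. In reads over the EMSC group, Fgfr1 was first with 52847, followed by Fgf7 with 49137, Fgfr2 with 23262, Fgf1 with 12451 and Fgf10 with 12297.

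Fgf1 and Fgf2, the acidic and basic FGFs that lack a classical signal peptide, were both higher in NPS-EMSC. Fgf1, which can bind all the FGF receptors, was at 18.6, 19.2 and 19.9 FPKM in EMSC and at 25.6, 24.8 and 26.3 FPKM in NPS-EMSC. The libraries of each group lay close together, and the rise was 1.37-fold (log2 fold change 0.46, SE 0.05, adjusted p = 1.03e-08). Fgf2, a growth factor much used to expand mesenchymal and neural stem cells in culture, was at 3.65, 3.72 and 3.76 FPKM in EMSC and at 7.54, 5.52 and 6.23 FPKM in NPS-EMSC. The NPS-EMSC values were more spread than the EMSC values but all higher, and the rise was 1.78-fold (log2 fold change 0.83, SE 0.17, adjusted p = 1.77e-04).

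Some ligand genes overlap another gene on the opposite strand in the GRCr8 annotation, and without a stated strand setting reads in a shared stretch cannot be told apart. Nudt6 overlaps the end of Fgf2 and had 282 reads in EMSC and 314 in NPS-EMSC, with no call (log2 fold change 0.22, SE 0.24, adjusted p = 0.446). Arhgap26 spans Fgf1 and went the other way from it, with 479 reads in EMSC against 201 in NPS-EMSC (log2 fold change -1.16, SE 0.28, adjusted p = 0.00120). Fam227b spans Fgf7 and had 211 and 98 reads, also lower (log2 fold change -0.99, SE 0.36, adjusted p = 0.020). Each had fewer reads than the FGF gene it overlaps, which had 12451 (Fgf1), 451 (Fgf2) and 49137 (Fgf7) over the EMSC group.

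Fgf21, the metabolic hormone of the family, was nearly undetected in EMSC and present in NPS-EMSC. It had 0, 0 and 1 reads in the EMSC libraries and 28, 37 and 29 in the NPS-EMSC libraries, the latter equal to 1.14, 1.51 and 1.17 FPKM. The groups were far apart. Summed reads scaled to library size gave a ratio of 98.6 (95% counting interval 17.3 to 3933, covering counting error only). The test gave a fitted log2 fold change of 3.87 (SE 0.57, adjusted p = 2.16e-06), a value that the prior count holds down. The gene passed the low-count filter only through the NPS-EMSC group, so it had to differ to be tested. The single EMSC read lay in EMSC replicate 3, and when that library was left out the EMSC group stood at 0. Setting it at 3 counts over both remaining libraries gave a ratio of 22.1, which follows from that setting and is not a lower limit. Without EMSC replicate 1 or EMSC replicate 2, the counting intervals began at 11.4 and 11.5. Klb, the gene of its co-receptor β-Klotho, had 0 reads in EMSC and 5 in NPS-EMSC, and Kl, the gene of the related co-receptor Klotho, had 1 in each group, so expression of either was not detectable above a few reads at this depth.

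The region upstream of Fgf21 is shown because it holds a known type of stress element. This element, bound by the transcription factor ATF4 together with a C/EBP partner, was searched as TGATGNAAT on both strands. Capitals mark its match on the reverse strand, 144 to 136 bases before the RefSeq start, and a TATA box (TATAAA) 32 to 27 bases before it.
Fgf21, chr1:105221377-105221626 (GRCr8, minus strand): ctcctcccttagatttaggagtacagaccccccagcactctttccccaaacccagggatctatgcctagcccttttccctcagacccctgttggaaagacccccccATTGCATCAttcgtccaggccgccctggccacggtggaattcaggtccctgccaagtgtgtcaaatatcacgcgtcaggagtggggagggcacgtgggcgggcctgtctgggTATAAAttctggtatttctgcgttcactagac
Among 33469 promoters, 0.944% held the ATF4 and C/EBP element in the 250 bases before the start, and of the 9 matched FGF members only Fgf21 did. Binding was not measured in these data. The E-box CACGTG also occurred once in the Fgf21 window, 54 to 49 bases before the start, and 5.59% of all promoters held it. The window also held 2 Sp1 GC boxes, which are not in capitals here.

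The remaining ligand genes were low. Fgf18, a ligand of skeletal and cartilage growth, was at 0.639, 0.723 and 0.612 FPKM in EMSC and at 0.388, 0.551 and 0.505 FPKM in NPS-EMSC. The values did not overlap, but with 249 and 179 reads per group the log2 fold change of -0.40 did not pass (SE 0.28, 95% interval -0.98 to 0.18, adjusted p = 0.233). Fgf5, known for ending the growth phase of the hair follicle, had 0, 2 and 1 reads in EMSC and 4, 8 and 4 in NPS-EMSC. The summed reads, scaled to library size, gave a ratio of 5.59 (95% counting interval 1.60 to 29.9). It was 3.70 without EMSC replicate 1 and 11.2 without EMSC replicate 2. With the low-count filter removed the gene had adjusted p = 0.212.

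The summed ligand level overlapped between the groups, while the shares of Fgf7, Fgf10 and Fgf1 did not. The secreted ligand genes summed to 292 ± 16.8 FPKM in EMSC and 289 ± 12.6 FPKM in NPS-EMSC (SD, n = 3), with overlapping values (two-sided exact permutation p = 0.6). Fgf7 and Fgf10 together made up 91.2% ± 0.573 in EMSC and 87.3% ± 0.292 in NPS-EMSC (SD, n = 3). The share of Fgf7 was 37.0% ± 3.43 and 28.8% ± 0.828, and that of Fgf10 was 54.3% ± 4.0 and 58.5% ± 0.732. The difference in the Fgf10 share was 4.23 percentage points, and 2.04 without EMSC replicate 2. Fgf1 held 6.60% ± 0.452 in EMSC and 8.84% ± 0.203 in NPS-EMSC. The 4 shares did not overlap between the groups (exact permutation p = 0.1, 0.124 adjusted). Counted in reads, where long genes weigh more, Fgf7 held 65.6% of the ligand reads in EMSC and 55.0% in NPS-EMSC, Fgf10 16.4% and 19.0%, and Fgf1 16.6% and 24.0%.

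Ranked by mean FPKM, the order of the members in EMSC was Fgf10, Fgf7, Fgfr1, Fgfr2, Fgf1, Fgfr3, Fgf2, Fgf18, Fgf5 and Fgf21. The values of the lowest pair, Fgf5 and Fgf21, overlapped, and no other neighbours did. In NPS-EMSC the order was Fgf10, Fgf7, Fgfr1, Fgf1, Fgfr2, Fgf2, Fgf21, Fgfr3, Fgf18 and Fgf5, with no overlap between neighbours. Fgf1 and Fgfr2 thus changed places, and Fgf2 and Fgf21 stood above Fgfr3. Among all genes tested, the level of Fgf10 was at the 97.4th percentile in EMSC and the 97.5th in NPS-EMSC, Fgfr2 went from the 87.3rd to the 72.1st, and Fgfr3 from the 46.4th to the 21.9th.

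Among the other genes of the family, Fgfrl1, a receptor-like gene whose product lacks the kinase domain, was at 14.1 ± 0.865 FPKM in EMSC and 7.92 ± 0.704 FPKM in NPS-EMSC (SD, n = 3) and fell (log2 fold change -0.79, SE 0.08, adjusted p = 6.16e-09). Fgfr4 had 1 and 2 reads. Of the other secreted ligands, Fgf9, which acts in the growth of mesenchyme and gonad, fell from 141 to 19 reads (log2 fold change -2.50, SE 0.48, adjusted p = 8.03e-05). Its NPS-EMSC libraries held 5, 6 and 8 reads. Fgf9 passed the low-count filter only through the EMSC group, so it had to differ to be tested. Fgf23, the phosphate hormone of bone, rose from 142 to 254 reads (log2 fold change 0.88, SE 0.30, adjusted p = 0.0142), and Fgf22 did not pass with 52 and 59 reads. Fgf16 and Fgf17 had too few reads to test. Among the FGF homologous factors, which stay inside the cell and bind sodium channels, Fgf11 rose (log2 fold change 1.74, SE 0.46) and Fgf14 fell (log2 fold change -1.29, SE 0.48), from 32 to 116 and from 106 to 38 reads. Fgf13, with 658 and 772 reads, and Fgf12, with 53 and 33, had log2 fold changes of 0.29 and -0.54 and did not pass.

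**Figure D3:**
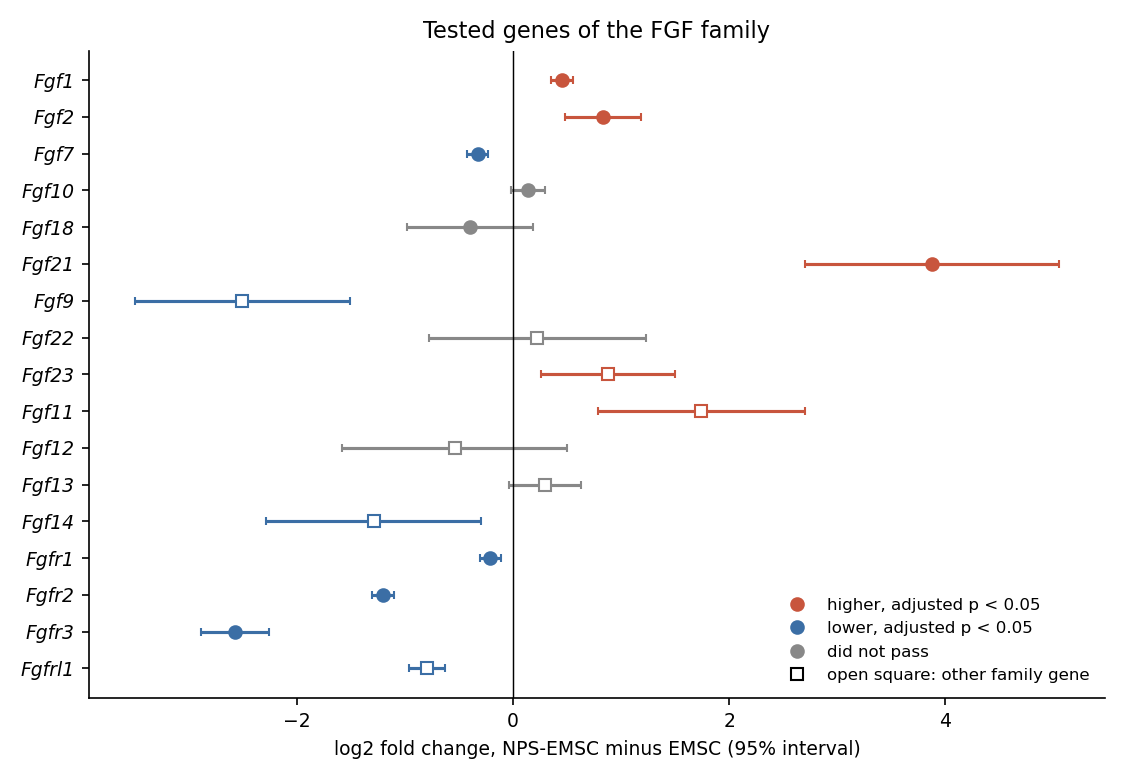
Log2 fold change (NPS-EMSC minus EMSC) with its 95% interval for the 17 tested genes of the FGF family; filled circles are the members, open squares other family genes, colours the call at adjusted p under 0.05. All 4 tested receptor genes lie below 0, while ligand genes lie on both sides.

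FGFs are held at the cell surface by heparan sulfate chains on syndecans and glypicans. In the list of carriers, proteoglycans and FLRT genes, 4 of 15 tested genes rose and 6 fell, with a median log2 fold change of -0.43. Over all genes tested, 29.7% rose and 29.5% fell, and the median was -0.0048. Gpc1, glypican 1, rose from 46.2 ± 2.0 to 109 ± 2.89 FPKM (mean ± SD of 3 libraries; log2 fold change 1.28, SE 0.05, adjusted p = 6.60e-18), and Gpc6, another glypican, fell from 81.4 ± 7.51 to 26.2 ± 0.650 FPKM (log2 fold change -1.59, SE 0.06). Flrt3, whose membrane protein binds FGF receptors, fell (log2 fold change -1.95, SE 0.14), while its relative Flrt2 rose (log2 fold change 0.35, SE 0.05). The syndecan gene Sdc1 fell with a log2 fold change of -0.43.

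Of the 14 enzyme genes of heparan sulfate synthesis and editing, 4 rose and 8 fell, with a median of -0.36, beside 29.7% and 29.5% of all genes tested. Extl2 and Extl3, genes of the chain initiation step, went in opposite directions, with log2 fold changes of -1.10 (SE 0.07) and 0.63 (SE 0.04). Glce, the epimerase gene, fell (log2 fold change -0.87), and the 6-O-sulfotransferase gene Hs6st2 rose (log2 fold change 1.17, SE 0.08, adjusted p = 1.60e-10). Named after their values were seen, the extracellular 6-O-sulfatase genes also split, with Sulf1 rising from 190 ± 3.47 to 263 ± 3.84 FPKM and Sulf2 falling from 40.7 ± 1.22 to 20.8 ± 2.87 FPKM (SD, n = 3).

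Of 21 tested adaptor and RAS-ERK genes, which act below the receptor, 6 rose, 3 fell and 12 did not pass, with a median log2 fold change of 0.02, where 59.3% of all genes tested passed. Frs2, the docking protein gene of FGF receptors, was among those that did not pass (log2 fold change -0.05, SE 0.05, adjusted p = 0.382; named after its value was seen). The genes with the smallest p were Map2k1, the MEK1 kinase gene, which rose (log2 fold change 0.44, SE 0.05), and Mapk3, the ERK1 gene, which fell from 80.1 ± 4.61 to 58.3 ± 2.13 FPKM (mean ± SD of 3 libraries; log2 fold change -0.41, SE 0.05, adjusted p = 7.19e-08). Araf, a RAF kinase gene, and Cbl, a ubiquitin ligase gene that acts on active receptors, rose by 0.43 and 0.31 on the log2 scale, and the phosphatase gene Ptpn11 (SHP2) fell with -0.14.

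The ERK-dependent targets and feedback inhibitors were split, 7 higher and 8 lower of 18 tested, with a median of 0.02, and the split over all genes tested was as even (29.7% higher and 29.5% lower). Etv5, an ETS factor gene that FGF signalling induces in many tissues, fell from 19.5 ± 0.304 to 10.4 ± 0.518 FPKM (mean ± SD of 3 libraries; log2 fold change -0.87, SE 0.06, adjusted p = 7.59e-13). Egr1, an immediate early gene, and Ccnd1, cyclin D1, were lower too, by log2 values of -0.64 and -0.75. Fosl1, an AP-1 subunit gene, rose from 7.63 ± 1.58 to 19.8 ± 2.05 FPKM (log2 fold change 1.41, SE 0.13, adjusted p = 6.62e-08), and so did the inhibitor gene Spred3 (log2 fold change 0.52). Named after their values were seen, Etv4 and the ERK phosphatase gene Dusp6, both common readouts of FGF signalling, fell with log2 fold changes of -0.34 and -0.34. Their relatives Dusp5 and Dusp4, also named in this way, rose (0.60 and 0.32), while Etv1, at 0.12, did not pass. The feedback inhibitor gene Il17rd, at 0.06, did not pass either. Of the Sprouty genes, also named in this way, Spry1 fell (log2 fold change -1.13, SE 0.19), Spry2 and Spry3 rose (0.22 and 0.83), while Spry4, at -0.02, did not pass (adjusted p = 0.850). For Spry3, with 141 and 243 reads, the CPM of the groups overlapped (SE 0.34, adjusted p = 0.0386). Transcript levels do not measure receptor or ERK activity.

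**Figure D4:**
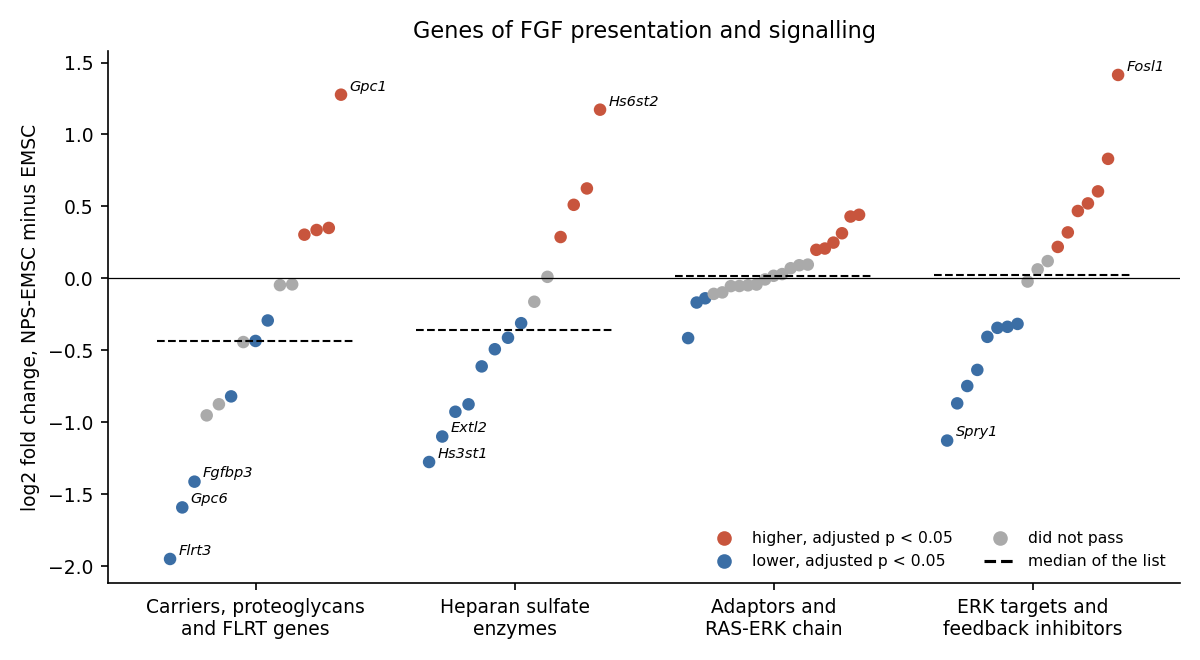
Log2 fold change (NPS-EMSC minus EMSC) of each tested gene in 4 lists of FGF presentation and signalling, ordered within a list; colours give the call and dashed lines the list medians. The adaptor and RAS-ERK genes lie close to 0, and the other lists spread from Flrt3 at -1.95 to Fosl1 at 1.41.

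The genes whose log2 CPM over the 6 libraries was most like that of Fgf21 were Plau and Pkig, with a Pearson r above 0.99 that 281 genes reached. For Fgfr3 they were Bloc1s6 and Ctnnd1, where 162 genes had an r above 0.99. With 2 groups of 3 libraries, such values mostly reflect the group difference that these genes share, and they are given as a description.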

How the data were processed

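RNA was sequenced from 3 EMSC and 3 NPS-EMSC libraries. The authors deposited raw read counts per gene and FPKM values per gene, 1 column per library. The tools named per the submitters' processing notes were HISAT2, StringTie, HTSeq, fastp, R 3.2.0 and DESeq, without their roles. Genome build, annotation and strand setting were not given in the sources used here. The length implied by counts, FPKM and library total was the same in all libraries for each of the 20653 genes (tolerance 0.1%), so both tables hold the same measurement.

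Counts were tested with edgeR 4.0.16 in R 4.3.3 (TMM, filterByExpr with minimum count 10 and minimum total 15, glmQLFit with robust estimation and prior count 2, glmQLFTest), on 14505 genes with Benjamini-Hochberg adjustment over all of them. The SE is the absolute log2 fold change over the square root of F, a rough guide for genes with few reads; 95% intervals use it. CPM are scaled by TMM totals. Alternatives used DESeq2 1.42.0, limma 3.58.1, other scalings and filters, a replicate block and leaving out each library. The procedure was tested on simulated counts.

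Members and lists were chosen with earlier results of these data known. Named genes were the members, tested family genes, the 4 called genes with the smallest p and up to 2 contrary called genes of each pathway list, overlapping opposite-strand genes, and the 2 most correlated genes of the largest rise and fall. Replicates of a group differed by more than counting noise (chi-square per degree of freedom 5.08 to 12.6).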

Additional observations from a re-analysis of the deposited data

How the results depend on the processing

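Of 143 comparisons of a tested member with an alternative, 140 kept direction and side of the threshold, and the other 3 were Fgf10 passing: without the low-count filter (adjusted p = 0.0180), with the replicate block (log2 fold change 0.14, adjusted p = 0.0170) and without EMSC replicate 1. The replicate numbers are not stated to pair samples, and same-numbered libraries did not deviate together (correlations -0.04, 0.05 and 0.04); the block left 8588 genes called against 8600. Over all alternatives 7121 to 8914 genes were called, 2 to 4 members were higher and 4 lower. Fgf21 did not reach 1 CPM in 3 libraries and was not tested under that filter. Its log2 fold change was 3.75 to 6.52 in the other fits on counts. On log2(FPKM + 1) the difference was 1.16, which the added 1 holds down for a gene this low. Fgf5 passed on log2(FPKM + 1) without a filter (adjusted p = 0.0368). In read counts in place of FPKM, the Fgf1 share of the ligands rose by 7.36 percentage points in place of 2.24. Leaving out each library, the Fgfr1 share of the receptors rose by 13.2 to 15.1 percentage points. Depth limits Fgf5, Fgf18, Fgf21 and Klb.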
